A study of Mus musculus with 22 samples.

Results

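The transcription factors that set gut and endoderm identity were followed here in lung epithelium of mice with altered NANCI and Nkx2.1 alleles. The group was chosen by name, as members of the HNF4, CDX, GATA, FOXA and KLF families, and holds 8 genes: Hnf4a, Hnf4g, Cdx2, Gata4, Gata6, Foxa1, Foxa2 and Klf5. Of these 8, 5 have a row among the 13750 genes measured in late fetal lung (E18.5) and the same 5 have one among the 15958 genes measured at 6 months: Hnf4a, Gata6, Foxa1, Foxa2 and Klf5. Hnf4g, Cdx2 and Gata4 are not analysed here.

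The lung buds from the foregut endoderm, the same sheet of cells that gives rise to oesophagus, stomach, intestine, liver and pancreas. FOXA and GATA factors open and mark endodermal chromatin in all of these organs, and the lung keeps Foxa1, Foxa2 and Gata6. HNF4A, a nuclear receptor, drives the enterocyte and hepatocyte programmes and is not a factor of normal alveolar epithelium, while CDX2 specifies intestine and GATA4 marks stomach and proximal intestine. KLF5 is a zinc-finger factor of proliferating gut crypts that also acts in lung epithelium. NKX2-1, the homeodomain factor that specifies lung, binds together with FOXA factors on lung genes, and in mouse lung tumours that lose it FOXA factors and HNF4A are found on gut genes.

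RNA from lung epithelial cells was sequenced in 22 libraries. Double mice carried NANCI-CreERT2:RFP on 1 chromosome and Nkx2.1-GFP on 1 (3 libraries at E18.5, 4 at 6 months), and Nkx mice were Nkx2.1-GFP/+ (3 libraries at each age). NANCI mice were NANCI-CreERT2:RFP/CreERT2:RFP (3 libraries, E18.5), and WT mice were labelled NANCI-+/+ (3 libraries at each age). CreERT2 is a tamoxifen-inducible Cre recombinase, RFP and GFP are fluorescent proteins, and NANCI is a long noncoding RNA transcribed beside Nkx2-1; no tamoxifen, strain or pooling is given in the labels used here. At E18.5 the cells were pulled down on magnetic beads by EpCAM, an epithelial surface protein, and at 6 months they were flow-sorted for EpCAM and against CD45 and CD31. Age and enrichment method changed together and the 2 ages were normalized separately, so no level was tested between them. Nothing in the labels ties replicates to separate mice, so the p-values reflect spread among libraries, which may be technical.

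RefSeq promoters of the members whose level differed between groups show what these genes carry at their starts. Windows were used for 4 of the 8 members, and those of the measured members Hnf4a, Foxa1 and Foxa2 are described here. The count of 4 does not show that the other members lack a RefSeq start. Windows are 300 bases, from 250 before to 50 after the start, on GRCm38.p6. Klf5 and Gata6 had no window used here. For Hnf4a the upstream start, the promoter known from pancreas, lies at chr2:163506607-163506906 on the + strand, with a GATA motif (AGATAA) in capitals at base -52. The downstream start, known from adult liver, lies at chr2:163546905-163547204 on the + strand, held none of the motifs searched and is shown because the gene can be read from either start. For Foxa1 (chr12:57546062-57546361, - strand) capitals mark a FOXA motif (TGTTTAC, on the opposite strand) at -141. The first of 3 Foxa2 windows (chr2:148046920-148047219, - strand) held none of the motifs searched and is shown beside its paralog.
Hnf4a, upstream start: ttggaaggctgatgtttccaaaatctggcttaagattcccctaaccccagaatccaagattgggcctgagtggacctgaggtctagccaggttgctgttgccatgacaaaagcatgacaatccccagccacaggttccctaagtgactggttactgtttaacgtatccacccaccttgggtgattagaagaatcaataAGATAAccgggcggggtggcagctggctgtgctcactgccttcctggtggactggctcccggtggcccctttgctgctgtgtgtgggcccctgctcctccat
Hnf4a, downstream start: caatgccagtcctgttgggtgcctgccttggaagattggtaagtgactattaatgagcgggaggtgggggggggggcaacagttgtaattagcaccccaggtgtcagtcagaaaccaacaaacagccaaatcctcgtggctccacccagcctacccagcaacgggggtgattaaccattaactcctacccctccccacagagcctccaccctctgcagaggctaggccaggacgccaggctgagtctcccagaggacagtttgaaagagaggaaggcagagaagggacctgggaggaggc
Foxa1: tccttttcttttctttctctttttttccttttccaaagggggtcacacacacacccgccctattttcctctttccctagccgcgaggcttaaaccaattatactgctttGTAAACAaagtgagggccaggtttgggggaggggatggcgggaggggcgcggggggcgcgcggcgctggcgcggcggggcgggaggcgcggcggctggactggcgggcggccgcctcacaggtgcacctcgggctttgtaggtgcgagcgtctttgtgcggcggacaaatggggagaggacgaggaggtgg
Foxa2, first start: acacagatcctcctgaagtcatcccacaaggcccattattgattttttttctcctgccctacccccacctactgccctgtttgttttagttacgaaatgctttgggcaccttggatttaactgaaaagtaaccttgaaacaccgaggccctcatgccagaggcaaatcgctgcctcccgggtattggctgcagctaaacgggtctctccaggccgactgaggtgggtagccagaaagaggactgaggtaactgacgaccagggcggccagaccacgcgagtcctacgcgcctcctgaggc

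The motifs were searched on both strands in all 32851 RefSeq windows of that length. AGATAA was in 11.2% of them, either FOXA motif (TGTTTAC or TATTTAC) in 6.54% and the KLF motif CCCACCC in 17.5%. The HNF4 motif AAGTCCA (4.17%), the CDX motifs TTTATGG and TTTATTG (7.2%) and the NKX2-1 motifs CACTTGA and CTCAAGT (5.55%) were in none of the 4 windows printed. The 2 other Foxa2 windows each held 2 copies of CCCACCC, overlapping by 1 base in the second window, and the third also held AGATAA. These letters describe the windows and show no binding.

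Values are log2 expression per gene, quantile-normalized within an age. The median gene of a library had a log2 value of 9.9 in the E18.5 set, and of 9.58 to 9.59 in the 6-month set; how many reads lie behind a value is unknown. Groups were compared with limma over all genes of an age, with p-values Benjamini-Hochberg adjusted over all genes and called under 0.05. Nkx2-1 itself was at 14.48 to 14.95 in all E18.5 libraries, and at 6 months at 13.75 to 14.43 in Double libraries, at 13.77 to 13.96 in those of Nkx mice and at 14.17 to 14.55 in WT (adjusted p = 0.114 for Double and 0.128 for Nkx against WT, limma). Nkx2-1 passed as lower at 6 months without Double 3 (-0.48 in Double, adjusted p = 0.0194). It also passed after centring each library on pan-epithelial genes (-1.27, adjusted p = 0.000139 in Double, and -0.82, adjusted p = 0.0293 in Nkx). That centring moved the median of all genes to -0.86 in Double and -0.3 in Nkx mice. From Xist and Y-linked genes, all 3 NANCI libraries showed the male pattern and all 4 of 6-month Double the female one, while the other groups were mixed. The third E18.5 Nkx library had both signals, and leaving it out changed no call of a member. In these bulk samples, fewer cells of a type and less RNA per cell cannot be told apart.

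Across the 5 measured factors, Hnf4a and Klf5 were higher in mice with the Nkx2.1-GFP allele at E18.5 and higher again in Double than in Nkx mice at 6 months, while Foxa1 and Foxa2 were each called in 1 comparison and Gata6 in none. Against WT, 3 of 5 factors were called higher in E18.5 Double mice (Hnf4a, Klf5 and Foxa1), where 7.13% of all genes were called higher, and 2 of 5 in E18.5 Nkx mice (Hnf4a and Klf5), where 3.67% were. At 6 months 2 of 5 were higher in Double than in WT mice (18.4% of all genes) and 1 of 5, Hnf4a, in Nkx mice (1.52%). Between Double and Nkx mice at 6 months 2 were higher (10.2% of all genes) and Foxa2 lower (11.5%). None was called in NANCI against WT mice, where limma called 0% of genes (0 genes; 426 had an unadjusted p under 0.05, and the smallest adjusted p was 0.0822), or in E18.5 Double against Nkx mice, where 0.00727% were called (1 gene; 559 at an unadjusted p under 0.05). Counted in either direction, the shares of all genes called were 14.6% in E18.5 Double, 7.32% in E18.5 Nkx, 36.3% in 6-month Double and 2.63% in 6-month Nkx mice, and the shares called lower were 7.47%, 3.65%, 17.9% and 1.11%, all against WT. Each group was compared with the same WT libraries, so these counts share controls.

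**Figure D1:**
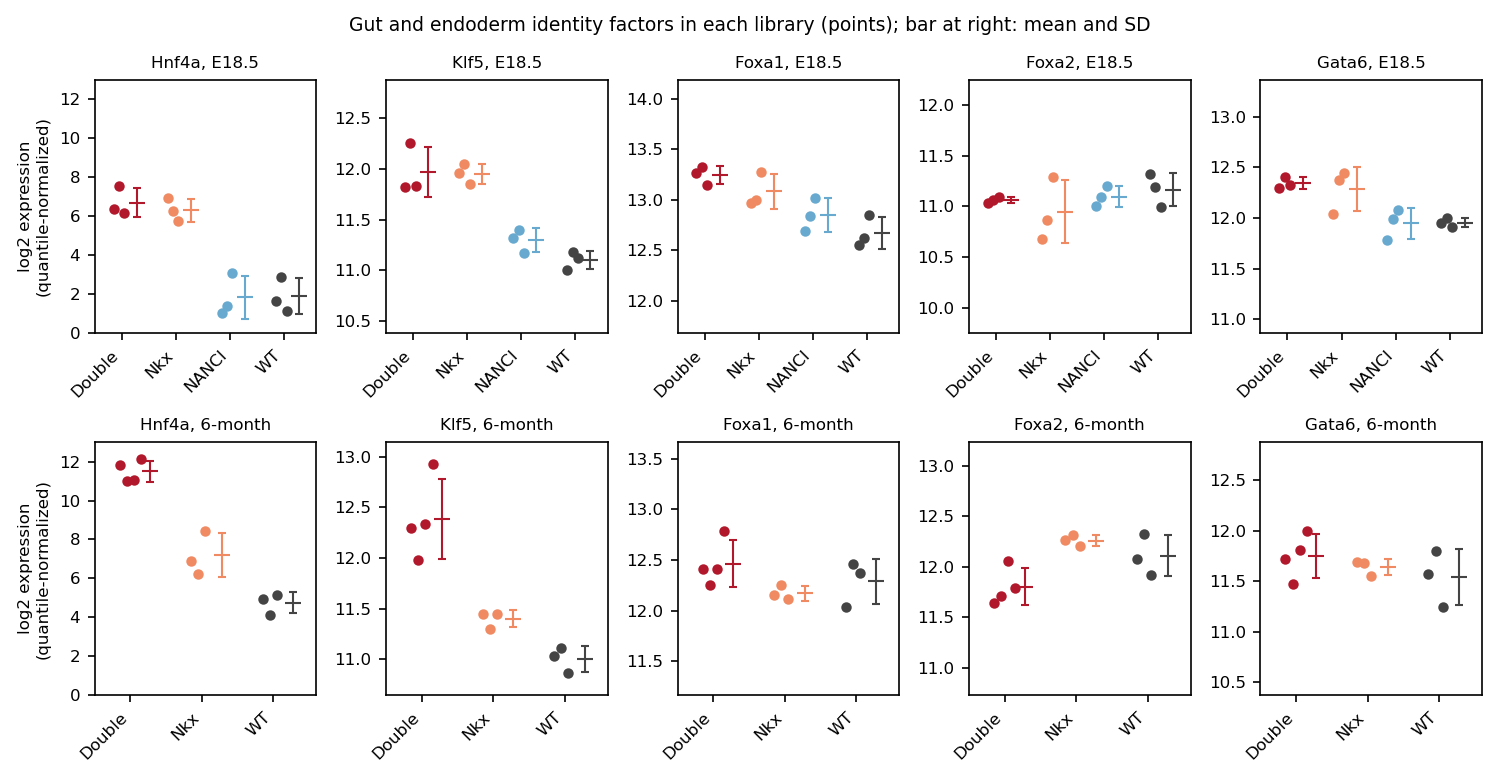
Log2 expression of the 5 measured factors (rows: E18.5 and 6 months) in each library (points) by group, with mean and SD at the right; vertical scales differ between panels. Hnf4a libraries span 1 to 7.55 in the upper row and 4.13 to 12.12 in the lower, while Foxa1, Foxa2 and Gata6 each stay within a range of about 1 log2 unit at each age.

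Hnf4a (ENSMUSG00000017950, GRCm38 chr2:163506808-163572910, + strand) encodes the nuclear receptor of gut and liver. At E18.5 its log2 level was 6.36, 7.55 and 6.18 in Double, 6.93, 6.26 and 5.75 in Nkx, 1, 1.40 and 3.09 in NANCI and 1.66, 2.89 and 1.13 in WT libraries. In 2 NANCI and 2 WT libraries this was the lowest value the library holds, read as 0 reads by inference, and the third WT library was 1 distinct value above it. Double and Nkx libraries lay 12 to 56 distinct values above the lowest and did not overlap with WT. The groups did not overlap for 27.2% of all genes in Double and 22.2% in Nkx against WT, for 6.27% in NANCI against WT (2.97% higher, 3.3% lower) and for 8.6% in Double against Nkx mice (3.91% lower). Hnf4a was higher by 4.80 ± 0.68 (log2, SE) in Double (adjusted p = 0.000643) and by 4.42 ± 0.68 in Nkx mice (adjusted p = 0.00212), against WT. The size of both differences rests on the bottom of the scale in WT, so no linear fold is given. The rule by which genes entered the E18.5 set is not known here. Hnf4a may have its row only through the Double and Nkx libraries, which would favour a call of higher, so these p-values are no independent support. The same limit holds below for Atoh1 and other genes with WT libraries at their lowest value. In NANCI mice the difference from WT was -0.07 ± 0.68 (adjusted p = 0.992), and Double differed from Nkx mice by 0.38 ± 0.68 (adjusted p = 1).

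At 6 months Hnf4a reached 11.83, 11.01, 11.05 and 12.12 in Double libraries, against 6.88, 6.25 and 8.45 in Nkx and 4.95, 4.13 and 5.15 in WT libraries. The 3 groups did not overlap: Hnf4a stood above 75% to 90% of genes in a Double library, 13.5% to 34.6% in an Nkx library and 1.64% to 5.38% in a WT library. Non-overlap held for 40.1% of all genes between Double and WT (21.1% higher), 31.8% between Double and Nkx and 30.5% between Nkx and WT. Double mice were higher than WT by 6.76 ± 0.48 (108-fold, adjusted p = 3.93e-06) and higher than Nkx mice by 4.31 ± 0.48 (19.8-fold, adjusted p = 0.000206). Only 0.0564% of genes had a larger change between Double and WT. Nkx mice were higher than WT by 2.45 ± 0.51 (5.46-fold, adjusted p = 0.0339). That last call was lost when any of 5 of the 6 libraries was left out (adjusted p = 0.0885 without Nkx 1, 0.0698 without Nkx 3, and 0.0646, 0.133 and 0.0538 without WT 1, 2 and 3), with a difference of 1.82 to 2.92. Hnf4a lay 5 to 13 distinct values above the lowest in WT libraries and 13 to 92 above it in Nkx libraries. The read numbers behind such values are unknown, so the folds against WT rest on low values and are not exact. The antisense gene Hnf4aos and Gm25881 overlap Hnf4a in the annotation, and the sources used here do not say whether counting used the strand.

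Klf5 (ENSMUSG00000005148, GRCm38 chr14:99298691-99315036, + strand), the crypt and epithelial progenitor factor, was called in the same direction with smaller differences. At E18.5 it was at 11.82, 12.26 and 11.83 in Double, 11.96, 12.05 and 11.85 in Nkx, 11.32, 11.40 and 11.17 in NANCI and 11, 11.18 and 11.12 in WT libraries. Double and Nkx libraries lay above every WT and NANCI library. Klf5 was higher than in WT by 0.87 ± 0.14 in Double (adjusted p = 0.00138) and by 0.86 ± 0.14 in Nkx mice (adjusted p = 0.00278). Double minus Nkx was 0.02 ± 0.14 (adjusted p = 1). In NANCI mice the difference was 0.20 ± 0.14 (adjusted p = 0.978).

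At 6 months Klf5 was at 12.30, 11.98, 12.34 and 12.93 in Double, 11.45, 11.30 and 11.45 in Nkx and 11.03, 11.11 and 10.86 in WT libraries, again with no overlap between the 3 groups. Double mice were higher than WT by 1.39 ± 0.18 (2.62-fold, adjusted p = 0.000168) and higher than Nkx mice by 0.99 ± 0.18 (1.99-fold, adjusted p = 0.00297). The Nkx difference from WT, 0.40 ± 0.19, was not called (adjusted p = 0.256). Whether the Double minus Nkx difference changed with age was not tested. After subtracting each library's mean over a list of 17 pan-epithelial genes, Klf5 lost its calls at E18.5 (0.50, adjusted p = 0.157 in Double; 0.78, adjusted p = 0.103 in Nkx) and against Nkx at 6 months (0.37, adjusted p = 0.0504), and kept that against WT (0.46, adjusted p = 0.0155).

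Foxa1 (ENSMUSG00000035451, GRCm38 chr12:57540628-57546916, - strand), a pioneer factor of endoderm, was at 13.27, 13.32 and 13.15 in E18.5 Double, 12.97, 13 and 13.28 in Nkx, 12.69, 12.84 and 13.02 in NANCI and 12.55, 12.62 and 12.85 in WT libraries. The Double and Nkx libraries lay above all WT libraries. The difference was called in Double mice (0.57 ± 0.13, 1.48-fold, adjusted p = 0.013) and not in Nkx (0.41 ± 0.13, adjusted p = 0.0866) or NANCI mice (0.18 ± 0.13, adjusted p = 0.978). The Double call was lost without WT 1 (0.51, adjusted p = 0.0612) and after the pan-epithelial centring (0.19, adjusted p = 0.677), and Nkx passed without WT 3 (0.50, adjusted p = 0.0299). At 6 months Foxa1 was at 12.41, 12.25, 12.41 and 12.79 in Double, 12.15, 12.25 and 12.11 in Nkx and 12.04, 12.46 and 12.37 in WT libraries, and all 3 groups overlapped. The differences were 0.17 ± 0.14 for Double against WT (adjusted p = 0.375), -0.12 ± 0.15 for Nkx against WT (adjusted p = 0.671) and 0.29 ± 0.14 for Double against Nkx (adjusted p = 0.166).

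Foxa2 (ENSMUSG00000037025, GRCm38 chr2:148042877-148046969, - strand), the paralog that shares many sites with Foxa1 in lung endoderm, was called lower in 1 comparison. At E18.5 it was at 11.03, 11.06 and 11.09 in Double, 10.68, 10.87 and 11.29 in Nkx, 11, 11.09 and 11.20 in NANCI and 11.32, 11.19 and 10.99 in WT libraries, and every pair of groups overlapped. The differences from WT were -0.11 ± 0.15 in Double, -0.22 ± 0.15 in Nkx and -0.07 ± 0.15 in NANCI mice, and none was called. At 6 months Foxa2 was at 11.64, 11.71, 12.06 and 11.79 in Double, 12.26, 12.31 and 12.20 in Nkx and 12.08, 12.32 and 11.92 in WT libraries. Every Double library lay below every Nkx library, and Double and WT overlapped. Foxa2 was lower in Double than in Nkx mice by 0.46 on the log2 scale (-0.46 ± 0.13, 0.73-fold, adjusted p = 0.0242), a call lost when any of 5 of the 7 libraries was left out: Double 1 (-0.40, adjusted p = 0.0601), Double 2 (-0.43, 0.0507), Nkx 1 (-0.45, 0.0757), Nkx 2 (-0.43, 0.0817) or Nkx 3 (-0.48, 0.0571). Against WT it was -0.30 ± 0.13 in Double (adjusted p = 0.0807; -0.39 and adjusted p = 0.0285 without Double 3) and 0.15 ± 0.14 in Nkx mice (adjusted p = 0.549). Pan-epithelial centring made the Double difference from WT larger and called (-1.23, adjusted p = 3.79e-05). The same centring moved the median of all genes to -0.86 and called 11089 of 15958 genes lower in that comparison.

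Gata6 (ENSMUSG00000005836, GRCm38 chr18:11052064-11085635, + strand), the zinc-finger factor of endoderm that the lung retains, was called in no comparison. At E18.5 it was at 12.30, 12.41 and 12.33 in Double, 12.04, 12.38 and 12.45 in Nkx, 11.78, 11.99 and 12.08 in NANCI and 11.95, 12 and 11.91 in WT libraries. Double and Nkx libraries lay above all WT libraries, by 0.39 ± 0.13 on average in Double (adjusted p = 0.0603) and 0.34 ± 0.13 in Nkx mice (adjusted p = 0.144). The NANCI difference from WT was 0 ± 0.13. At 6 months it was at 11.72, 11.47, 11.81 and 12 in Double, 11.69, 11.68 and 11.55 in Nkx and 11.57, 11.80 and 11.25 in WT libraries, and the 3 groups overlapped. The differences were 0.21 for Double against WT (adjusted p = 0.293), 0.10 for Nkx against WT (0.743) and 0.11 for Double against Nkx (0.642). After pan-epithelial centring the first was -0.71 (adjusted p = 0.000839), with the median of all genes at -0.86. A noncoding gene, 1010001N08Rik, overlaps Gata6 in the annotation.

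**Figure D2:**
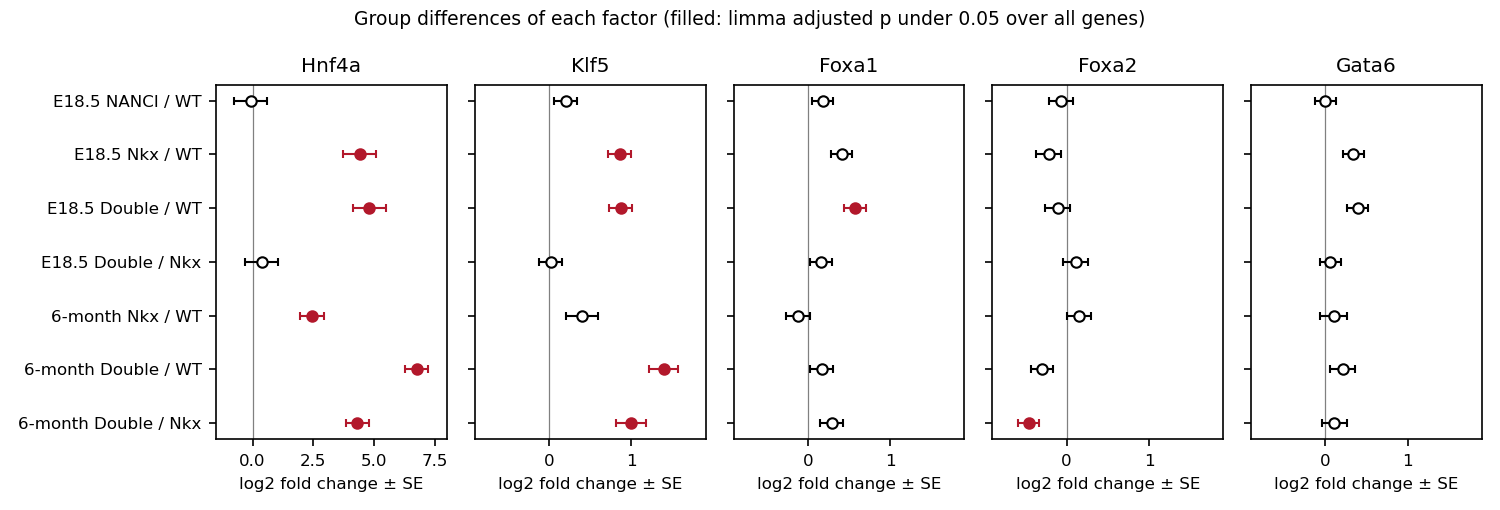
Log2 fold change (horizontal axis, points, with SE bars) of each factor in the 7 comparisons (rows); filled points have a limma adjusted p under 0.05 over all genes, and the Hnf4a panel has a wider axis. Hnf4a differences reach 6.76, Klf5 1.39, and those of Foxa1, Foxa2 and Gata6 stay between -0.46 and 0.57.

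Within a group, the same library often led several factors. Double 2 was the highest E18.5 Double library for Hnf4a, Klf5, Foxa1 and Gata6, and Double 4 the highest 6-month Double library for the same 4 genes. These 2 libraries also had the highest mean over the pan-epithelial genes in their groups, 13.30 against 12.75 and 12.92 at E18.5, and 13.72 against 13.37 to 13.67 at 6 months. They also had the most distinct values at or below the median, 284 against 255 and 218, and 382 against 128 to 180. Other groups went both ways. NANCI 3 led Hnf4a, Foxa1, Foxa2 and Gata6 with the highest pan-epithelial mean of its group (12.57). At 6 months WT 2 led Klf5, Foxa1, Foxa2 and Gata6 with the lowest pan-epithelial mean (12.60). At E18.5 that mean spanned 12.75 to 13.30 in Double libraries, 12.49 to 12.94 in Nkx libraries, 12.34 to 12.57 in NANCI libraries and 12.10 to 12.97 in WT libraries. At 6 months it spanned 13.37 to 13.72 in Double libraries, 12.90 to 12.98 in Nkx libraries and 12.60 to 12.67 in WT libraries. Of the 17 genes, 14 were called higher and 1 lower in 6-month Double than in WT mice, and 4 were higher in E18.5 Double mice. Centring subtracts this group difference from every gene. With that centring, the median of all genes moved by -0.36 in E18.5 and -0.86 in 6-month Double against WT, and the split of higher to lower calls became 289 to 1691 and 565 to 11089, where it was 981 to 1027 and 2937 to 2858. For E18.5 Nkx against WT it became 137 to 236 (505 to 502 before), for 6-month Nkx against WT 148 to 2116 (242 to 177 before) and for 6-month Double against Nkx 488 to 8919 (1629 to 1831 before). Hnf4a stayed called in the 5 comparisons where it was called before, at 4.43 in E18.5 Double, 4.34 in E18.5 Nkx, 5.83 in 6-month Double and 2.14 in 6-month Nkx mice, each against WT, and at 3.69 in 6-month Double against Nkx mice.

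Markers of other cell types differed between the groups. Against WT, 7.13% of all genes were called higher and 7.47% lower in E18.5 Double, and 3.67% and 3.65% in E18.5 Nkx mice. At 6 months 18.4% of all genes were called higher and 17.9% lower in Double mice, and 1.52% higher in Nkx mice. At E18.5, 8 of 9 measured leukocyte markers were lower in Double and 5 of 9 in Nkx than in WT mice, with list means of 3.76 to 4.59 in Double libraries, 3.75 to 4.90 in Nkx libraries, 6.14 to 6.45 in NANCI libraries and 6.84 to 7.17 in WT libraries. Mesothelial markers, 5 measured, averaged 10.37 to 10.69 in Double and 8.92 to 9.26 in WT, and 3 of the 5 were higher. Wt1, Lrrn4 and Bnc1 of that list were not among the genes measured at E18.5. At 6 months the list went mostly the other way, with 2 of 8 higher and 4 lower in Double than in WT mice (median -1.13). At 6 months all 12 endothelial markers were lower in Double than in WT mice (means 8.20 to 9.22 against 11.08 to 12.30), as were 11 of 13 mesenchymal markers (6.22 to 7.64 against 9.17 to 9.90) and 10 of 13 immediate early genes, which rise when tissue is dissociated (12.19 to 13.36 against 13.57 to 14.43). No measured marker of the endothelial, mesenchymal or leukocyte lists was at the lowest value in every library of a group. Hepatocyte markers, 7 measured at 6 months, averaged 8.06 to 8.89 in Double libraries, 6.74 to 6.93 in Nkx libraries and 5.70 to 6.44 in WT libraries, and 4 were higher in Double than in WT mice, 1 of them being Apoa1, also an HNF4 target. Epithelial markers differed too. In 6-month Double against WT mice 10 of 10 ciliated, 9 of 12 alveolar type 2 and 6 of 11 alveolar type 1 markers were lower (medians -1.5, -1.51 and -1.26). Of 10 oesophagus and stomach markers 7 were higher (median 4.52), with means of 9.72 to 10.35 in Double libraries, 7.33 to 7.41 in Nkx libraries and 5.49 to 6.63 in WT libraries, and 3 were higher in Nkx mice. At E18.5, 11 of 12 alveolar type 2 markers were lower in Double and 4 of 12 in Nkx mice, and 5 of 7 oesophagus and stomach markers were higher in Double and 4 of 7 in Nkx mice, Tff2 being at the lowest value in all WT libraries. What part these shifts had in the levels of the 5 factors was not tested.

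**Figure D3:**
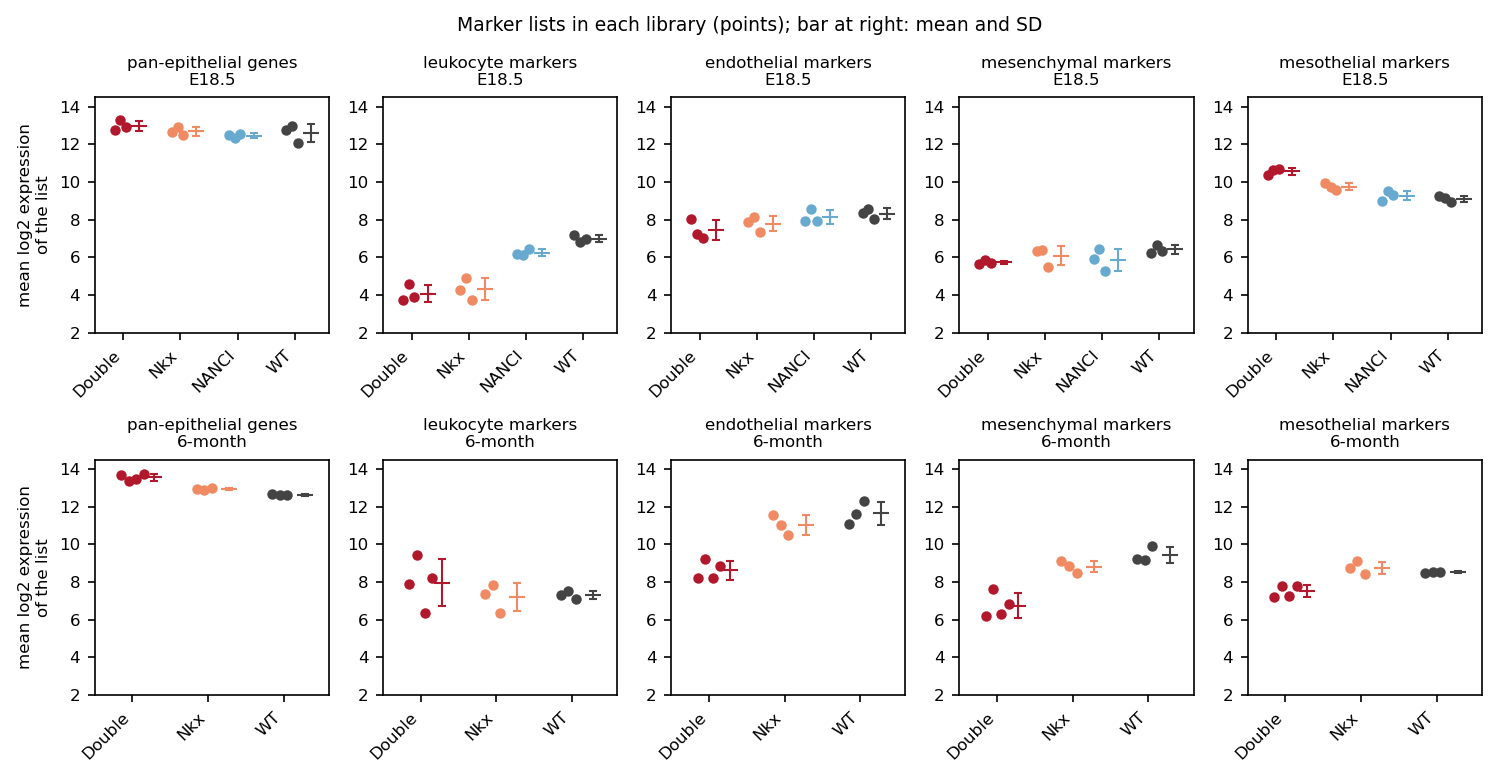
Mean log2 expression (vertical axis) of 5 marker lists in each library (points), with group mean and SD at the right; E18.5 above, 6 months below. Leukocyte means at E18.5 are lowest in Double and Nkx (3.75 to 4.90, against 6.84 to 7.17 in WT), and at 6 months endothelial and mesenchymal means are lowest and pan-epithelial means highest in Double.

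Close relatives of the factors were called in both directions. Of 16 relatives measured at E18.5 Gata5, an endoderm and heart factor, was higher in Double than in WT mice (2.22 ± 0.60, adjusted p = 0.0259), and the zinc-finger genes Klf15 (-0.84 ± 0.23) and Klf11 (-0.69 ± 0.19) were lower in Nkx mice. The Gata5 call was lost under 5 of 15 other settings and the Klf15 and Klf11 calls under 10 of 16 each. The median change of the relatives was -0.01 in Double and -0.05 in Nkx mice, against 0.02 for all genes. Of all genes, 7.13% were called higher in E18.5 Double and 3.65% lower in E18.5 Nkx mice. At 6 months, 4 of 20 relatives were higher and 7 lower in Double than in WT mice (median -0.23, all genes 0.06). In that comparison 18.4% of all genes were called higher and 17.9% lower. None of the relatives was called in Nkx mice (median 0.04, all genes 0.01). After pan-epithelial centring 1 was higher and 14 lower in Double mice (median -1.16, all genes -0.86), and leaving out 1 library gave 4 to 9 lower, the 4 without WT 2 or WT 3. Foxa3, the liver paralog of Foxa1 and Foxa2, was at 8.76, 8.08, 7.74 and 8.28 in Double, 6.32, 6.66 and 5.90 in Nkx and 4.14, 5.45 and 5.89 in WT libraries, higher in Double than in WT mice by 3.05 ± 0.43 (adjusted p = 0.000263) and than in Nkx mice by 1.92 ± 0.43 (adjusted p = 0.00826). The relatives that fell most in Double mice were Gata2 (-3.52 ± 0.39), Klf2 (-2.03 ± 0.20) and Gata3 (-1.75 ± 0.50), of which Gata2 and Klf2 are also endothelial genes; the Gata3 call was kept in 15 of 17 other settings.

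Other factors of gut, liver and pancreas were called mainly higher. Of 33 listed, 17 were measured at E18.5 and 19 at 6 months. At E18.5, 7 of 17 were higher and 2 lower in Double (median 0.64), and 7 were higher and 1 lower in Nkx mice (median 0.58), against WT. The median of all genes was 0.02 in each. Of all genes, 7.13% were called higher and 7.47% lower in Double, and 3.67% higher and 3.65% lower in Nkx mice. Atoh1, the master factor of intestinal secretory cells, was at 5.57, 5.57 and 4.48 in Double and 5.94, 6.60 and 5.18 in Nkx libraries, against the lowest value of the library in all 3 WT and all 3 NANCI libraries, so no fold is given (adjusted p = 0.000814 for Double and 0.000561 for Nkx against WT). Foxq1, a gastric mucous cell factor, was higher by 2.08 ± 0.25 in Double and 1.39 ± 0.25 in Nkx mice, and Spdef, the goblet cell factor, by 2.18 ± 0.44 and 1.83 ± 0.44. Bhlha15, of enzyme-secreting cells, was higher by 2.10 ± 0.45 in Double and 1.75 ± 0.45 in Nkx mice. In Nkx mice the Bhlha15 call was kept in 8 of 16 other settings, that of Spdef in 11 and that of Foxq1 in 15. The 7 higher factors of Nkx mice became 2 without WT 1, 3 without Nkx 3, 4 without Nkx 1 and 3 after pan-epithelial centring; those of Double mice were 6 to 8 with 1 library left out and 4 after centring.

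At 6 months 10 of 19 gut, liver and pancreas factors were higher and 3 lower in Double than in WT mice (median 0.71, all genes 0.06), and 1, Spdef, was higher in Nkx mice (median -0.29, all genes 0.01). Of all genes, 18.4% were called higher and 17.9% lower in Double, and 1.52% higher in Nkx mice. Foxq1 was at 13.68, 12.54, 12.99 and 14.28 in Double, 11, 10.89 and 11.12 in Nkx and 9.84, 8.54 and 9.65 in WT libraries (Double against WT 4.03 ± 0.38, adjusted p = 2.28e-05). Spdef was at 10.58, 10.46, 10.59 and 10.40 in Double, 9.58, 9.65 and 9.34 in Nkx and 7.90, 7.42 and 8.40 in WT libraries, higher by 2.60 ± 0.20 in Double (adjusted p = 6.3e-06) and by 1.62 ± 0.21 in Nkx mice (adjusted p = 0.00574). Both genes showed 3 levels with no overlap, in the order of Hnf4a and Klf5. Non-overlap held for 40.1% of all genes between Double and WT, 31.8% between Double and Nkx and 30.5% between Nkx and WT. How many genes show 3 such levels was not counted. Sox17, an endoderm gene that endothelium also uses, fell most in Double mice (-2.57 ± 0.39), followed by Ppara, a fatty acid oxidation regulator (-1.55 ± 0.23). After pan-epithelial centring 3 of the 19 were higher and 7 lower (median -0.21, all genes -0.86). Of 28 factors of lung epithelium itself, 7 were higher and 8 lower in 6-month Double mice (median -0.20). The shares of all genes there were 18.4% and 17.9%. Centring turned the counts of the 28 into 2 higher and 20 lower (median -1.12), and leaving out WT 1 or WT 2 into 4 higher and 7 lower. Etv5, an alveolar type 2 cell factor, was at -2.41 ± 0.35 in 6-month Double mice. In E18.5 Double mice 0 of 26 were higher and 4 lower (median -0.16), against 7.13% and 7.47% of all genes.

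**Figure D4:**
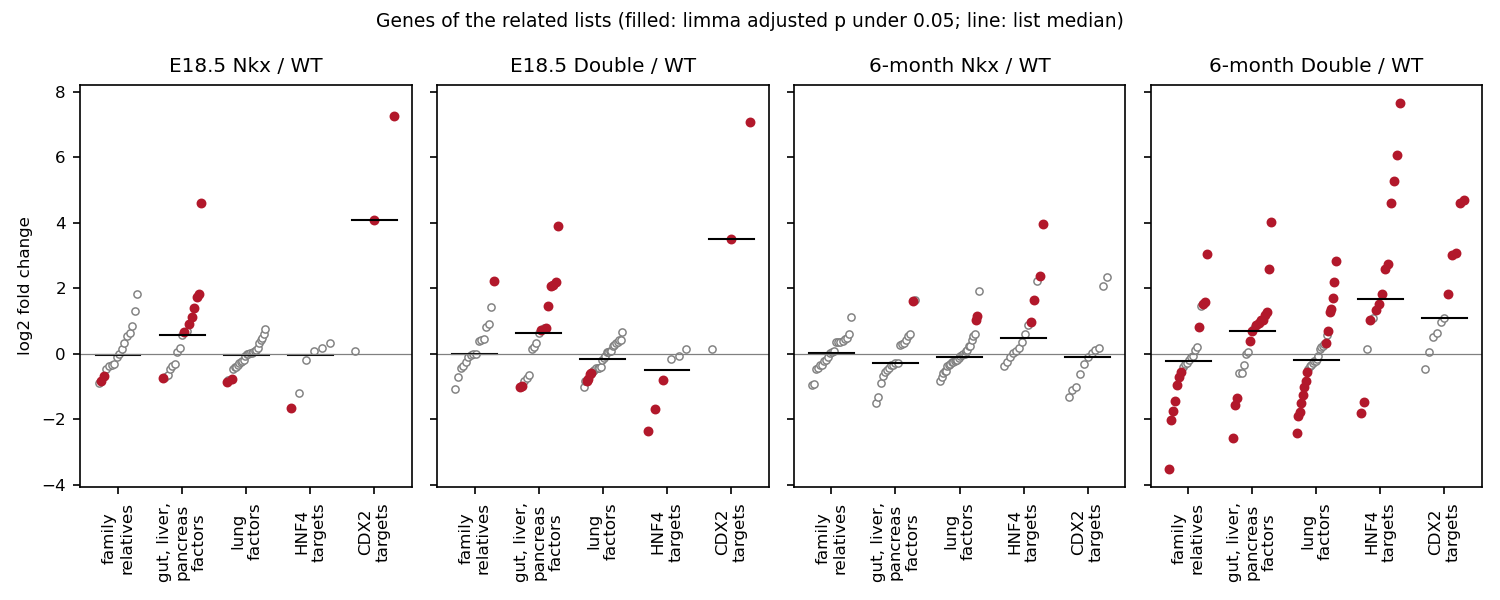
Log2 fold change (vertical axis) of each measured gene of 5 related lists in 4 comparisons with WT; filled points have a limma adjusted p under 0.05 and the bar is the list median. Medians of HNF4 and CDX2 targets in 6-month Double mice are 1.67 and 1.08; the highest gut factor point at E18.5 is Atoh1, whose WT libraries are all at their lowest value, so its height is no fold.

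Known targets of HNF4A were next. Among 6 measured at E18.5, none was called higher: in Double mice Apob, the lipoprotein core protein (-2.35 ± 0.55, adjusted p = 0.0135), Dpp4, a brush border peptidase (-1.70 ± 0.16, adjusted p = 6.54e-05), and Anpep, another (-0.80 ± 0.18, adjusted p = 0.00977), were lower than in WT (calls kept in 13, 16 and 14 of 16 other settings), and in Nkx mice Dpp4 was (-1.66 ± 0.16, adjusted p = 0.000152). The list medians were -0.48 and -0.05. Of all genes, 7.47% were called lower in E18.5 Double and 3.65% in E18.5 Nkx mice. Hnf4a was thus called higher in these groups while none of the 6 targets was. The list holds 27 genes, and Apoa1, Ttr and Vil1, among others, were not among the genes measured at E18.5. The counts at the 2 ages therefore cover different targets, and the response of the unmeasured ones at E18.5 is unknown. At 6 months 10 of 14 targets were higher and 2 lower in Double than in WT mice (median 1.67, all genes 0.06), and 4 were higher in Nkx mice (median 0.48, all genes 0.01). Of all genes, 18.4% were called higher and 17.9% lower in Double, and 1.52% higher in Nkx mice. Leaving out 1 library at a time gave 7 to 9 higher targets in Double and 0 to 2 in Nkx mice (0 without Nkx 2, and no more than 2 without any other library), and centring gave 5 higher and 3 lower in Double mice.

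Apoa1, the main HDL apolipoprotein, was at 10.51, 9.69, 8.61 and 9.85 in 6-month Double, 4.94, 2.34 and 5.41 in Nkx and 1.48, 1.32 and 3.20 in WT libraries, with 1 Nkx and 2 WT libraries at their lowest value (Double against WT, adjusted p = 3.03e-05). Apob was at 12.03, 12.25, 13.11 and 13.79 in Double, 8.33, 9.95 and 9.05 in Nkx and 7.31, 5.89 and 6.97 in WT libraries, higher by 6.07 ± 0.48 in Double and 2.39 ± 0.52 in Nkx mice, the Nkx call being kept in 6 of 16 other settings (highest adjusted p = 0.155). Its groups stood in the order Double, Nkx and WT with no overlap, as those of Hnf4a did, a pattern that was not counted over all genes. Ttr, the thyroid hormone carrier, was at 8.21, 7.30, 6.22 and 8.11 in Double, 5.78, 6.25 and 6.40 in Nkx and 2.34, 1.32 and 2.85 in WT libraries (5.29 ± 0.57 and 3.97 ± 0.61 against WT, of which 1 library was at its lowest value). Lgals4, a gut lectin, was at 13.69, 12.61, 12.12 and 12.99 in Double, against 8.03, 8.38 and 8.89 in Nkx and 7.83, 8.22 and 8.70 in WT libraries (Double against WT 4.61 ± 0.34, adjusted p = 4.69e-06). Nkx and WT libraries of Lgals4 overlapped, while Double stood apart from both. Dpp4 (-1.81 ± 0.20) and Anpep (-1.48 ± 0.21) were lower in Double than in WT mice, as at E18.5.

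**Figure D5:**
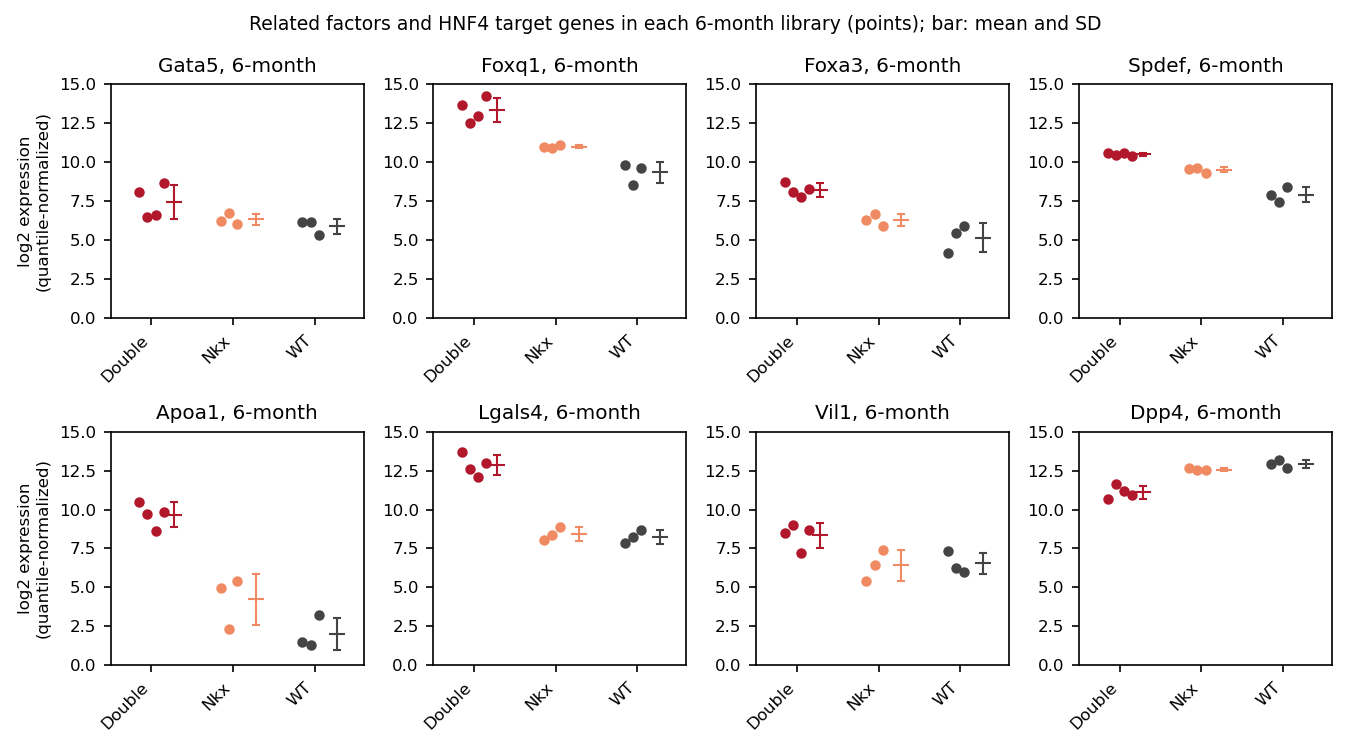
Log2 expression (vertical axis, 0 to 15 in each panel) of 4 related factors (top) and 4 HNF4 target genes (bottom) in each 6-month library (points), with mean and SD. Foxq1, Foxa3, Spdef, Apoa1 and Lgals4 libraries are all higher in Double than in Nkx and WT, Gata5 libraries of Double and Nkx overlap, and all Dpp4 libraries are lowest in Double.

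CDX2 itself is not analysed here, and of its 17 listed targets 3 were measured at E18.5 and 11 at 6 months. Guca2a, the guanylin hormone of gut epithelium, was at 10.74, 12.33 and 10.22 in E18.5 Double and 11.31, 11.89 and 10.58 in Nkx libraries, against 3.84, 3.01 and 4.09 in NANCI and 4.97, 5.90 and 1.13 in WT libraries, 1 of these WT values being its library's lowest (7.09 ± 0.96 in Double, adjusted p = 0.000476; 7.26 ± 0.96 in Nkx, adjusted p = 0.000797). Muc2, the gut mucin, was higher by 3.50 ± 0.57 in Double and 4.10 ± 0.57 in Nkx mice, and Lgals4 was not called. At 6 months 18.4% of all genes were called higher and 17.9% lower in Double than in WT mice. Of the 11 targets 5 were higher and none lower in Double mice (median 1.08, all genes 0.06), and none was called in Nkx mice (median -0.10). They were Guca2a (4.70 ± 0.69, adjusted p = 0.000361), Lgals4, Krt20, a keratin of gut surface cells (3.09 ± 0.83), Clca1, a goblet cell product (3.01 ± 0.62), and Vil1, a brush border protein (1.82 ± 0.53). Muc2, called at E18.5, was not called against WT at 6 months in Double or Nkx mice. Without WT 2, 3 of the 11 were higher, and the Krt20 call was kept in 15 of 17 other settings. Guca2a was thus called in E18.5 Nkx mice and not in 6-month Nkx mice, where it was at 3.07, 2.34 and 3.25, against 3.93, 2.85 and 2.85 in WT, 2 of the Nkx values being the lowest of their library. Lgals4, Vil1 and Cdh17 stand in both target lists.

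Lung genes that FOXA factors, GATA6 or KLF5 are known to act on were all measured, 22 at each age. In Double against WT mice 4 were higher and 10 lower at E18.5 (median -0.70) and 5 were higher and 8 lower at 6 months (median -0.44). The shares of all genes called higher and lower were 7.13% and 7.47% at E18.5, and 18.4% and 17.9% at 6 months. For Nkx against WT mice they were 3.67% and 3.65% at E18.5, and 1.52% and 1.11% at 6 months. The 10 lower targets became 6 without WT 1. Centring gave 4 higher and 16 lower at 6 months (median -1.37, all genes -0.86). In Nkx mice 4 were higher and 2 lower at E18.5 (median -0.33), and 4 were higher and none lower at 6 months (median 0.00). At E18.5 these became 2 higher and 1 lower without WT 1, Nkx 2 or Nkx 3 and 3 higher and 5 lower without WT 3; at 6 months 1 was higher without WT 1, WT 2, Nkx 1 or Nkx 2, 2 without Nkx 3, and centring gave 4 higher and 3 lower. Agr2, a mucin-folding protein, was higher in 6-month Double mice by 6.73 ± 0.46 and Muc5ac, the gastric and airway mucin, by 5.02 ± 0.31. Scgb1a1, the club cell secretoglobin, was lower in E18.5 Double mice by 3.10 on the log2 scale (-3.10 ± 0.33, adjusted p = 0.000128). Among 13 GATA and HNF4 cofactors at E18.5, 1 was called: Zfpm2, a GATA-binding cofactor, at 6.95, 6.84 and 7.21 in Double, 6.78, 6.39 and 6.84 in Nkx and 3.73, 4.29 and 4.15 in WT libraries (2.95 ± 0.32 and 2.62 ± 0.32). At 6 months Tal1 (-2.97 ± 0.58) and Lmo2 (-2.40 ± 0.30), cofactors of GATA factors in blood and endothelium, were lower and the deacetylase Hdac1 higher (0.52 ± 0.15) of 14 in Double against WT mice, and none was called in Nkx mice. Of all genes, 18.4% were called higher and 17.9% lower in that Double comparison. The Hdac1 call was lost without WT 1 (0.45, adjusted p = 0.0673) or WT 3 (0.47, adjusted p = 0.0657). Its direction turned after centring (-0.40, adjusted p = 0.0727), with the median of all genes at -0.86. That centring gave 0 higher and 13 lower of the 14 in Double and 0 higher and 7 lower in Nkx mice.

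The genes whose values tracked each factor most closely across libraries are given as a description; libraries of a group share their genotype, and these correlations (Pearson r, over the 12 E18.5 or 10 6-month libraries) carry no test. Hnf4a was closest to Anxa1 (0.98), Tff3 (0.977) and Creb3l4 (0.976) at E18.5 and, among others, to Dnajc22 (0.991) and Cldn2 (0.983) at 6 months. Klf5 was closest to Amt (0.981), B3gnt3 (0.976) and Polr1a (0.974) at E18.5 and, among others, to Mucl3 (0.98) and then Plagl1 at 6 months. None of the 3 closest genes of a factor was shared between ages. Foxa1 was closest to Nr2f2 (0.96) and Rcor1 (0.959), Foxa2 to Sirpa (0.834) and mt-Te (0.971), and Gata6 to Elavl1 (0.952) and Lmbrd2 (0.918), naming the closest gene at E18.5 and then at 6 months.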

How the data were processed

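Lung epithelial RNA was measured in 22 libraries. The authors deposited 1 log2 value per Ensembl gene ID and library; ranked values were nearly identical across libraries (median SD 0.00187 at E18.5, 0.00242 at 6 months), so they were taken as quantile-normalized, 1 age at a time. STAR, limma and mm9 are named per the submitters' processing notes, without versions or roles. Read depth is unknown; 209 to 284 (E18.5) and 128 to 382 (6 months) distinct values lie at or below a library's median. Symbols and gene coordinates come from GENCODE on GRCm38, not mm9, matched on gene ID for 99.2% and 96.2% of IDs.

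For the 7 comparisons, limma 3.58.1 (R 4.3.3) fitted 1 model per age over all its libraries, group as sole factor, with a mean-variance trend, no filter and no pseudocount; the count model planned for counts was not used, since the files hold log2 values. The code was tested on simulated data. Named genes are the members, Nkx2-1, up to 4 passing genes of a list by size, and the 3 most correlated genes with a mean of at least 5. Per-library values, and genes named beyond that (Foxa3 against Nkx, Vil1), were chosen after their values were seen, as was which related genes were drawn. Some genes are not reported here. Members and lists were chosen with earlier results of these data known. Alternatives changed the prior, weights, filter, groups fitted, scaling, sex and depth covariates, replicate block and libraries left out. Replicate numbers were checked for pairing by the correlation of same-numbered libraries' deviations from their group means: of the group pairs only E18.5 Double and Nkx had all 3 above 0.1 (0.298, 0.504 and 0.18), a pairing that comes from the data and not from the labels.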

Additional observations from a re-analysis of the deposited data

How the results depend on the processing

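Read totals are unknown, so low values limit Hnf4a in E18.5 WT and NANCI libraries most. In both Nkx2.1-GFP groups against WT at E18.5, and in 6-month Double against WT and Nkx, Hnf4a kept its direction and its call under every alternative run. The causes of the changes below were not tested. With array weights the genes called numbered 1057 in NANCI (0 in the main analysis), 5243 in E18.5 Double (2008), 3451 in E18.5 Nkx (1007) and 1097 in 6-month Nkx mice (419), each against WT, and 3 in E18.5 Double against Nkx (1). Foxa1 in E18.5 Nkx (0.50) and Gata6 in E18.5 Double (0.38) passed with these weights, and E18.5 Double minus Nkx became -0.02 for Hnf4a, -0.08 for Klf5 and 0.05 for Nkx2-1. Without the mean-variance trend 3 genes were called in NANCI and 98 in 6-month Nkx mice, and the 6-month Hnf4a (Nkx against WT, 2.45) and Foxa2 (Double against Nkx, -0.46) calls were lost. Fitting only the groups compared, or quantile-normalizing them anew, gave 928 genes in E18.5 Double, 491 in E18.5 Nkx and 3 in E18.5 Double against Nkx mice, and ended the calls of Foxa1 in E18.5 Double (0.57) and Hnf4a in 6-month Nkx mice (2.45).

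Centring on pan-epithelial genes called 373 genes in E18.5 Nkx, 2264 in 6-month Nkx and 11654 in 6-month Double against WT, 9407 in 6-month Double against Nkx and 0 in E18.5 Double against Nkx mice. In NANCI mice it gave 0.07 for Hnf4a, 0.14 for Gata6 and 0.07 for Foxa2. At E18.5 it gave, in Double, 0.50 for Klf5, 0.19 for Foxa1 and -0.32 for Nkx2-1; in Nkx, 0.78 for Klf5 and -0.01 for Nkx2-1; and in Double against Nkx, -0.24 for Gata6, -0.14 for Foxa1, -0.19 for Foxa2 and -0.28 for Klf5. At 6 months it gave, in Double, -0.71 for Gata6, -0.75 for Foxa1, -1.23 for Foxa2 and -1.27 for Nkx2-1; in Nkx, -0.21 for Gata6, -0.16 for Foxa2 and -0.82 for Nkx2-1; and in Double against Nkx, -0.51 for Gata6, -0.32 for Foxa1, 0.37 for Klf5 and -0.45 for Nkx2-1. A sex covariate called 3851 genes in 6-month Double and 228 in 6-month Nkx mice against WT, gave 0.37 for Hnf4a in NANCI mice, and ended the Foxa2 call between Double and Nkx (-0.42). A depth covariate gave 3 genes in E18.5 Double against Nkx mice and 0.01 for Gata6 in NANCI mice.

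In E18.5 Double against Nkx the replicate block left 1 gene called and changed no call of a member. Outside that comparison replicate numbers did not pair all libraries of 2 groups. Over all pairs of groups, same-numbered libraries' deviations correlated at -0.285 to 0.504 (E18.5) and at -0.302 to 0.128 (6 months). At E18.5, library 2 of WT correlated with library 2 of Nkx at 0.472 and of Double at 0.454, and those 2 with each other at 0.504. Differently numbered E18.5 libraries reached at most 0.427. Whether the libraries numbered 2 share a batch was not tested. With the replicate number as a block, 131 genes were called in 6-month Nkx against WT and 2285 in 6-month Double against Nkx mice, Gata6 passed in E18.5 Double (0.39) and Foxa2 did not pass between Double and Nkx (-0.45).

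Leaving out 1 library at a time gave 0 to 2 genes in NANCI, 1182 to 2691 in E18.5 Double, 466 to 2179 in E18.5 Nkx and 59 to 211 in 6-month Nkx mice against WT, 0 to 1 in E18.5 and 2204 to 3492 in 6-month Double against Nkx mice. The lowest came without WT 1 in both E18.5 comparisons, without WT 2 in 6-month Nkx and without Nkx 1 in 6-month Double against Nkx, and the 2179 without WT 3; 1222 and 1330 came without Double 2 and 3, and 611 and 502 without Nkx 2 and 3. In NANCI mice the ranges were -0.70 to 0.43 for Hnf4a, -0.07 to 0.08 for Gata6, -0.16 to 0.01 for Foxa2 and -0.05 to 0.17 for Nkx2-1. In E18.5 Double they were 0.51 to 0.66 for Foxa1 and -0.07 to 0.15 for Nkx2-1, in E18.5 Nkx 0.31 to 0.50 for Foxa1 and -0.06 to 0.16 for Nkx2-1, and in E18.5 Double against Nkx -0.04 to 0.69 for Hnf4a, -0.07 to 0.14 for Gata6, -0.02 to 0.28 for Foxa2, -0.13 to 0.09 for Klf5 and -0.05 to 0.06 for Nkx2-1. At 6 months they were -0.40 to -0.20 for Foxa2 and -0.48 to -0.26 for Nkx2-1 in Double, 1.82 to 2.92 for Hnf4a and -0.04 to 0.23 for Gata6 in Nkx, and -0.54 to -0.40 for Foxa2 in Double against Nkx mice.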
